A study of Mus musculus with 24 samples.

Results

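The genes described here are 9 Krueppel-like factors, Klf2, Klf3, Klf4, Klf6, Klf7, Klf9, Klf10, Klf11 and Klf13, chosen by symbol from a table of 24273 genes. RNA-seq was performed on bone marrow-derived macrophages (BMDMs), which are bone marrow cells grown into macrophages in culture, from C57BL/6 mice of 2 genotypes, to find the genes that FOS controls after LPS. FosKO mice carry Fos-fl/fl alleles and LysM-Cre, and the controls, called LysM-Cre, also carry the Cre. The design text gives the controls as LysM-Cre alone, whereas the study's text gives them as Fos fl/+ LysM-Cre. BMDMs were left unstimulated (0 h) or stimulated through TLR4 with bacterial LPS (100 ng/ml) for 0.5, 1 or 2 h, and each of the 8 groups had 3 libraries, 24 in all. LysM-Cre drives recombination from the Lyz2 locus in macrophages and granulocytes. The ages of the mice used for these cultures are not given in the sources used here, and the study's methods call the libraries biological replicates without saying whether those of a group came from separate mice or cultures, so p-values measure the spread between these libraries.

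Krueppel-like factors bind GC-rich and CACCC sequences through zinc fingers at the carboxyl end of the protein, and they differ mainly in the regulatory region that lies before the fingers. Klf2, Klf4, Klf6 and Klf7 belong to the group known for recruiting acetyltransferases, Klf3 recruits the corepressor CtBP, and Klf9, Klf10, Klf11 and Klf13 recruit the corepressor Sin3. In macrophages Klf2 is known for restraining inflammatory gene expression, Klf4 for monocyte differentiation and alternative activation, and Klf6 for promoting inflammatory gene expression. Klf10 and Klf11 were first described as genes induced by TGF-beta, and Klf9 is a target of the glucocorticoid receptor.

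FOS acts as a subunit of AP-1, so the 250 bases before the RefSeq start site (GRCm38.p6) were searched. The search covered both strands in the 8 members with an entry. The whole Klf7 window and part of the Klf2, Klf3, Klf6 and Klf11 windows lie inside the genes as annotated by GENCODE, not before them. The letters of AP-1 (TGANTCA) were in 6.75% of all 32851 promoter windows of that length, and of the 8 members only the Klf9 window held them, beginning at position -89 from the start. A MEF2 match was in 2.92% of all windows and, of the 8 members, only in the Klf2 window, at position -118. The GC box, GGGCGG, was in 32.7% of all windows and in 7 of the 8 members, all but Klf9. CACCC was in 52% of all windows and in 5 members, Klf2, Klf3, Klf7, Klf9 and Klf13. The CACCC letters of Klf2 lie in the part inside its gene. No member's window held the CRE (TGACGTCA, 1.55% of all windows), the CArG box (1.47%), the NF-kB match (7.25%), TATAAA (12.4%) or the ETS letters CCGGAAGT (2.88%). GC box and CACCC letters can overlap each other, as can CArG and MEF2 letters, and a match is a description of the letters, not a bound site. The windows of Klf2 and Klf4, the members with the largest upward differences in LPS response between the genotypes, and of Klf9 are shown with capitals on the MEF2 match and GC boxes of Klf2, the GC boxes of Klf4 and the AP-1 match of Klf9. They lie at chr8:72318812-72319032 (plus strand, cut where the GENCODE gene begins), chr4:55532476-55532725 (minus strand) and chr19:23140976-23141225 (plus strand).
Klf2: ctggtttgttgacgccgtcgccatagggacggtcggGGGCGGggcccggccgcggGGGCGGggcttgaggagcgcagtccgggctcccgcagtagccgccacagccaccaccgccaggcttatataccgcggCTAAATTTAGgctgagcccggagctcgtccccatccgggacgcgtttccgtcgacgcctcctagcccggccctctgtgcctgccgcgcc
Klf4: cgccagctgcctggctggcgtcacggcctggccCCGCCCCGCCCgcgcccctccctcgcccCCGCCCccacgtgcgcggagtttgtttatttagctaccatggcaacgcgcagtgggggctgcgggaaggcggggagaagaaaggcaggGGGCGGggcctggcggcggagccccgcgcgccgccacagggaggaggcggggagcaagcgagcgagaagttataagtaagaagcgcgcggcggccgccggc
Klf9: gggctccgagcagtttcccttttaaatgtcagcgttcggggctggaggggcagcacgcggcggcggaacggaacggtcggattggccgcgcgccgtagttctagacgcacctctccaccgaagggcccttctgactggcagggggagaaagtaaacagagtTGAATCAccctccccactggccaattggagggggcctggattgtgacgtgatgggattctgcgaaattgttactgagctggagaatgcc

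The deposited values are log2 values with no depth, so counting error could not be computed, and fold changes are on that scale. Fos was lower in FosKO-labelled than in LysM-Cre libraries at 0.5 h, with a difference of -0.77 (limma adjusted p = 5.93e-07), and higher at the other 3 times. Its level was 11.11, 13.52, 11.15 and 9.52 on average in LysM-Cre at 0, 0.5, 1 and 2 h, and 12.60, 12.75, 12.78 and 12.80 in the libraries labelled FosKO, which are therefore called FosKO-labelled below. The exons that were deleted are not given in the sources used here, so a value over the whole gene cannot check the deletion. Lyz2, the locus of the Cre, was higher by 4.89 to 5.17 in FosKO-labelled libraries at the 4 times. The libraries compared as genotypes below thus also differed in Lyz2 at every time, and the part of this in the results was not tested. The level of 18S ribosomal RNA (Rn18s-rs5) split the libraries into 19 with values of 18.57 to 19.39 and 5 with 16.653 to 16.998. The low set held 2 libraries from the 0.5 h groups, LysM-Cre replicate 3 with FosKO-labelled replicate 1, and 3 libraries from the 1 h groups, FosKO-labelled replicate 1 with LysM-Cre replicates 2 and 3. All 6 macrophage markers were expressed, with a summed log2 level of 16.96 to 17.15, and the defining markers Ly6g and Elane of neutrophils and Cd3d and Cd3e of T cells were below 0 on the log2 scale. Other genes of the neutrophil list were above 0, S100a8 at 4.09 to 5.41, S100a9 at 3.86 to 5.83 and Camp at 1.56 to 2.11. The summed neutrophil list was higher in LysM-Cre, at 5.69 to 5.95 against 5.147 to 5.389 at 0 h and 6.28 to 6.70 against 5.63 to 5.83 at 2 h. The summed dendritic cell list was higher at 2 h than at 0 h, from 4.78 to 4.93 to 6.76 to 6.90 in LysM-Cre and from 4.75 to 5.12 to 6.37 to 6.42 in FosKO-labelled libraries. Cd4 (7.57 to 8.44) and the endothelial marker Kdr (8.25 to 9.98) were expressed. The summed endothelial list lay at 8.37 to 8.75 in LysM-Cre and 8.98 to 10.02 in FosKO-labelled libraries, and the summed T cell list at 7.59 to 7.90 and 8.004 to 8.445. The summed fibroblast list was higher in LysM-Cre without overlap at 0 h (4.42 to 4.73 against 3.82 to 4.22) and 1 h, and the summed B cell list at 0.5 h (5.50 to 5.66 against 5.08 to 5.41), 1 h and 2 h. The part of these 6 lists in the results was not tested. Fewer cells of a type and less RNA per cell cannot be told apart in these bulk samples.

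All 9 members passed the filter on low values, together with 13901 genes in all. Their log2 level per kb of exon in unstimulated LysM-Cre BMDMs was highest for Klf6 at 11.84, followed by Klf13 at 8.58, Klf10 at 7.33, Klf4 at 6.92, Klf3 at 6.87, Klf7 at 6.64, Klf2 at 6.51, Klf11 at 5.78 and Klf9 at 5.39. Klf6 thus stood well above every other member on this scale, and the next levels lay close together from Klf4 to Klf2. In 7 of 9 members the group means spanned at least 1 on the log2 scale, against 2696 of the 13901 genes tested, and the median span was 1.43 against 0.501. The SD within groups was 0.031 to 0.088 for the members, and the median over all genes was 0.083. Klf9 and Klf13, with spans of 0.385 and 0.383, lay below the median of all genes.

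**Figure D1:**
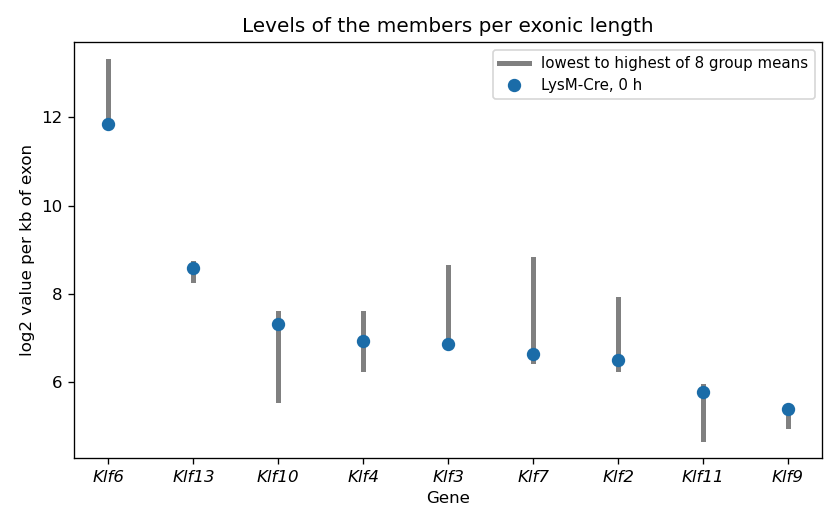
Log2 value per kb of exon for each member, with the LysM-Cre mean at 0 h as a point and the lowest to highest of the 8 group means as a bar. Klf6, at 11.84, was the highest member and Klf9, at 5.39, the lowest in unstimulated LysM-Cre BMDMs.

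LPS changed all 9 members in LysM-Cre BMDMs by 1 h. At 0.5 h 4 members, Klf2, Klf4, Klf6 and Klf7, had risen and none had fallen, where 7.24% of all genes were called (limma, Benjamini-Hochberg adjusted p under 0.05). At 1 h 6 members were higher than at 0 h and 3 were lower (35.8% of all genes called), and at 2 h 3 were higher and 5 were lower (60.8% called). In FosKO-labelled BMDMs 4 members were called at 0.5 h, all higher (5.92% called), 8 at 1 h, 5 higher and 3 lower (32.6%), and 7 at 2 h, 4 higher and 3 lower (62.1%). The members called at 0.5 h were Klf2, Klf4, Klf6 and Klf13 in FosKO-labelled BMDMs. The Klf13 call (0.09) was lost without FosKO-labelled replicates 1 or 2 at 0 h or replicates 2 or 3 at 0.5 h (0.07 to 0.10), and after quantile normalisation the value was 0.02 (limma adjusted p = 0.639). It was also lost with no filter, no variance trend, only the compared groups or only the libraries of high 18S level. The Klf4 call (0.29) was lost with only the compared groups in the fit (limma adjusted p = 0.0977), which left 2 members called. Among the 19 libraries of high 18S level, the 1 h response in LysM-Cre was 0.20 for Klf4, -0.24 for Klf9 and 0.11 for Klf10 and was not called for these 3 genes, with 1 library left at 1 h.

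Between consecutive times, 7 members were called in LysM-Cre from 0.5 to 1 h (26.8% of all genes) and 7 from 1 to 2 h (52.3%), and in FosKO-labelled BMDMs 8 from 0.5 to 1 h (27.5%) and 7 from 1 to 2 h (50.7%). Using only the libraries of high 18S level, 4 members were called from 0.5 to 1 h in LysM-Cre. The largest step was the fall of Klf2 by 1.56 (SE 0.07) from 1 to 2 h in FosKO-labelled BMDMs.

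Genotype differences were called in every member at 1 or more of the 4 times, as in 64.4% of all genes. FosKO-labelled and LysM-Cre BMDMs differed in 7 members at 0 h (35.4% of all genes called), 6 at 0.5 h (40.9%), 6 at 1 h (33.9%) and 7 at 2 h (44.6%). At 0 h 2 members were higher in FosKO-labelled BMDMs and 5 lower, and at 2 h 6 were higher and 1, Klf10, was lower. The median difference over the 9 members was -0.16 at 0 h and 0.20 at 2 h, beside medians over all genes of 0.0025 and 0.0040. The difference in LPS response between the genotypes, tested as an interaction, was called in 0 members at 0.5 h by limma (0.115% of all genes called), with 1 member, Klf2, at an unadjusted p under 0.05. It was called in 3 members at 1 h (1.22%) and in 7 at 2 h (15.0%). Klf4, Klf7 and Klf11 were called lower in FosKO-labelled BMDMs at 0 and 0.5 h and higher at 2 h, a pattern chosen after the values were seen, which 0.468% of all genes had. Of these calls, Klf7 at 0 h and Klf11 at 2 h were lost without some single libraries. Klf7 at 2 h was lost after quantile normalisation.

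**Figure D2:**
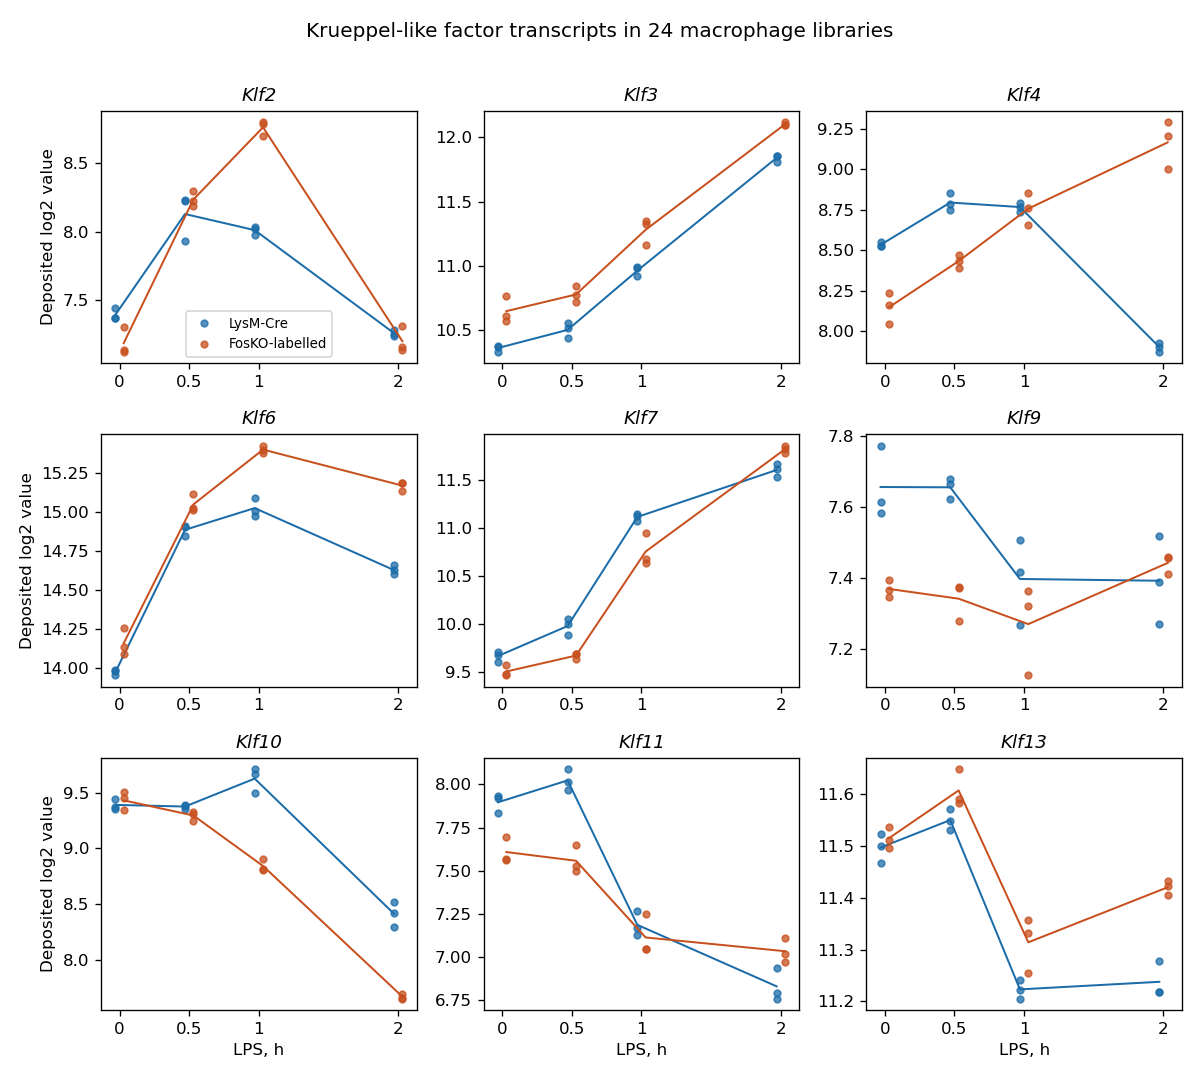
Deposited log2 values of the 9 members in each of 24 libraries (points) against hours of LPS, with lines through the means of 3 libraries, LysM-Cre in blue and FosKO-labelled in orange. The Klf2 curves part at 1 h (8.01 against 8.76), the Klf4 curves cross and lie farthest apart at 2 h (7.90 against 9.17), and the Klf10 curves are apart at 1 and 2 h.

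Positions of the genes are from GENCODE on GRCm38. Klf4 (ENSMUSG00000003032, chr4:55527143-55532466, minus strand) had the largest genotype difference of the family. The unstimulated LysM-Cre libraries had log2 values of 8.53, 8.52 and 8.55, those given LPS for 0.5 h had 8.75, 8.85 and 8.79, those given it for 1 h 8.74, 8.77 and 8.79, and those given it for 2 h 7.90, 7.93 and 7.87. The unstimulated FosKO-labelled libraries had log2 values of 8.24, 8.04 and 8.16, those given LPS for 0.5 h had 8.39, 8.47 and 8.43, those given it for 1 h 8.66, 8.76 and 8.85, and those given it for 2 h 9.005, 9.205 and 9.291. The control values rose early and then dropped to the lowest of the 8 groups, while the FosKO-labelled values climbed through the whole time course to the highest. Against 0 h, Klf4 at 2 h fell by 0.63 in LysM-Cre (SE 0.06, limma adjusted p = 1.42e-08) and rose by 1.02 in FosKO-labelled BMDMs (limma adjusted p = 6.44e-12). These responses differed by 1.65 (95% interval 1.47 to 1.83, limma adjusted p = 8.92e-11), and the 2 h levels of the genotypes differed by 1.27, or 2.41-fold (limma adjusted p = 3.48e-12), with no overlap between the groups. At 0 h Klf4 was instead lower in FosKO-labelled libraries by 0.39 (limma adjusted p = 4.64e-05) and at 0.5 h by 0.36 (limma adjusted p = 6.98e-05), again with no overlap. The 0.5 h difference was -0.35 within the high and -0.39 within the low 18S libraries. At 1 h the ranges overlapped and the difference was -0.01 (95% interval -0.14 to 0.12), with 0.07 in the high and -0.12 in the low 18S libraries. The difference in response at 1 h, 0.38 (limma adjusted p = 0.0322), was not called in 10 of 12 fits that left out a library (0.32 to 0.39). Among these fits it was called only without FosKO-labelled replicate 1 at 0 h (0.42) or at 1 h (0.43). The libraries of high 18S level gave 0.46, with only 1 LysM-Cre library left at 1 h. The 0.5 h rise in LysM-Cre, 0.26, was not called without LysM-Cre replicate 2 at 0.5 h (0.23).

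Klf2 (ENSMUSG00000055148, chr8:72319033-72321656, plus strand), which keeps monocytes and macrophages quiescent, made a sharp peak that was higher in FosKO-labelled BMDMs. The unstimulated LysM-Cre libraries had log2 values of 7.45, 7.37 and 7.37, those given LPS for 0.5 h had 7.93, 8.23 and 8.23, those given it for 1 h 7.98, 8.02 and 8.04, and those given it for 2 h 7.28, 7.24 and 7.26. The unstimulated FosKO-labelled libraries had log2 values of 7.30, 7.14 and 7.12, those given LPS for 0.5 h had 8.18, 8.22 and 8.30, those given it for 1 h 8.70, 8.80 and 8.79, and those given it for 2 h 7.14, 7.16 and 7.31. The genotypes overlapped at 0.5 and 2 h, and at 1 h all 3 FosKO-labelled values were above every other library of the series. The 1 h difference was 0.75 (SE 0.07, limma adjusted p = 5.96e-08), or 1.68-fold, and was 0.82 in the high and 0.67 in the low 18S libraries. Klf2 rose by 0.62 from 0 to 1 h in LysM-Cre (limma adjusted p = 3.95e-07) and by 1.57 in FosKO-labelled BMDMs (limma adjusted p = 1.25e-13), and these responses differed by 0.96 (95% interval 0.75 to 1.162, limma adjusted p = 4.52e-06). By 2 h neither genotype differed from its 0 h level by the test, with changes of -0.13 (95% interval -0.28 to 0.01) and 0.01 (-0.13 to 0.16). The 0 h difference of -0.21 (limma adjusted p = 0.0257) was not called without LysM-Cre replicate 1 (-0.18), FosKO-labelled replicate 2 (-0.18) or replicate 3 (-0.17). From 0.5 to 1 h Klf2 changed by -0.12 in LysM-Cre (limma adjusted p = 0.248). This step was -0.22 and called without LysM-Cre replicate 1 at 0.5 h (limma adjusted p = 0.0136).

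Klf6 (ENSMUSG00000000078, chr13:5861482-5870394, plus strand), which promotes inflammatory gene expression and was the most abundant member, was higher in FosKO-labelled BMDMs at all 4 times. Its group means at 0, 0.5, 1 and 2 h were 13.97, 14.88, 15.02 and 14.63 in LysM-Cre and 14.16, 15.05, 15.40 and 15.17 in FosKO-labelled libraries. Both genotypes had an early rise, and the groups did not overlap at any time. The genotype difference was 0.19, 0.16, 0.38 and 0.54 in time order, with limma adjusted p of 0.000872, 0.00225, 3.07e-07 and 1.13e-09. The 0 h and 0.5 h differences were 0.04 and 0.08 and were not called after quantile normalisation. Split by 18S level, the 0.5 h difference was 0.19 (high set) and 0.11 (low set), and the 1 h difference 0.43 (high set) and 0.35 (low set). Klf6 had risen by 0.65 at 2 h in LysM-Cre and by 1.01 in FosKO-labelled BMDMs, and the responses differed by 0.36 (95% interval 0.24 to 0.47, limma adjusted p = 0.000149). The 1 h responses differed by 0.19 (limma adjusted p = 0.148), a value that was 0.24 and called without FosKO-labelled replicate 3 at 0 h, and 0.27 and called after quantile normalisation. From 0.5 to 1 h Klf6 rose by 0.14 in LysM-Cre, and this step was -0.05 after quantile normalisation. It was not called without LysM-Cre replicate 1 at 0.5 h (0.12) or replicate 3 at 1 h (0.11). The libraries of high 18S level gave 0.10, with only 1 LysM-Cre library left at 1 h.

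Klf7 (ENSMUSG00000025959, chr1:64029447-64122282, minus strand), an activator known from neurons and fat cells, had the largest LPS response of the family. Its means at 0, 0.5, 1 and 2 h were 9.66, 9.98, 11.11 and 11.60 in LysM-Cre and 9.50, 9.67, 10.75 and 11.82 in FosKO-labelled libraries. Klf7 rose in both genotypes, by 1.94 at 2 h in LysM-Cre (SE 0.06, limma adjusted p = 1.6e-16), or 3.84-fold, and by 2.32 in FosKO-labelled BMDMs (limma adjusted p = 9.29e-18), or 4.99-fold. The 0.5 to 1 h step was 1.14 in LysM-Cre and 1.09 in FosKO-labelled BMDMs, and the 1 to 2 h step was 0.49 and 1.07. The genotype difference was -0.31 at 0.5 h (limma adjusted p = 0.000384), -0.36 at 1 h (limma adjusted p = 9.91e-05) and 0.22 at 2 h (limma adjusted p = 0.00669), and the groups did not overlap at these times. Split by 18S level, the 0.5 h difference was -0.31 in both sets, and the 1 h difference was -0.31 (high set) and -0.47 (low set). The 2 h responses differed by 0.38 (limma adjusted p = 0.00489). After quantile normalisation the 2 h genotype difference was 0.08 and not called. The 1 h responses differed by -0.20 (limma adjusted p = 0.562), which became -0.30 and was called without FosKO-labelled replicate 3 at 1 h. The 0 h difference of -0.16 (limma adjusted p = 0.0469) was not called without LysM-Cre replicates 2 (-0.16) or 3 (-0.14) or FosKO-labelled replicates 1 (-0.15) or 2 (-0.14).

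Klf3 (ENSMUSG00000029178, chr5:64803388-64832901, plus strand), the CtBP-recruiting repressor, rose in parallel in both genotypes from different starting levels. Its means at 0, 0.5, 1 and 2 h were 10.36, 10.50, 10.96 and 11.84 in LysM-Cre and 10.65, 10.78, 11.28 and 12.10 in FosKO-labelled libraries. The FosKO-labelled libraries were higher at every time without overlap, by 0.29 (limma adjusted p = 8.95e-05), 0.27 (limma adjusted p = 0.000108), 0.32 (limma adjusted p = 2.88e-05) and 0.26 (limma adjusted p = 0.000164). Split by 18S level, the 0.5 h difference was 0.28 (high set) and 0.26 (low set), and the 1 h difference 0.42 (high set) and 0.18 (low set). The rise at 2 h was 1.48 in LysM-Cre and 1.45 in FosKO-labelled BMDMs, and the responses differed by -0.03 (95% interval -0.17 to 0.12). The rise at 0.5 h in FosKO-labelled BMDMs, 0.13 (limma adjusted p = 0.134), was 0.19 and called without replicate 3 at 0 h. Klf3 overlaps C230096K16Rik on the same strand and Gm20033 on the other, so its reads may be shared with the former, and Klf7, Klf9 and Klf13 also overlap other annotated genes.

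Klf10 (ENSMUSG00000037465, chr15:38291463-38300706, minus strand), a Sin3-recruiting repressor known as an early TGF-beta response gene, was lower in FosKO-labelled BMDMs at 1 and 2 h of LPS, the opposite direction to Klf3 and Klf6. The unstimulated LysM-Cre libraries had log2 values of 9.37, 9.45 and 9.36, those given LPS for 0.5 h had 9.39, 9.38 and 9.36, those given it for 1 h 9.50, 9.71 and 9.67, and those given it for 2 h 8.42, 8.52 and 8.29. The unstimulated FosKO-labelled libraries had log2 values of 9.45, 9.34 and 9.50, those given LPS for 0.5 h had 9.33, 9.31 and 9.25, those given it for 1 h 8.82, 8.81 and 8.90, and those given it for 2 h 7.65, 7.69 and 7.66. The genotypes overlapped at 0 h and lay far apart at 1 and 2 h. The difference was 0.04 at 0 h (95% interval -0.08 to 0.16), -0.08 at 0.5 h (not called, limma adjusted p = 0.281), -0.79 at 1 h (SE 0.06, limma adjusted p = 1.64e-09) and -0.74 at 2 h (limma adjusted p = 1.97e-09). At 1 h it was -0.65 in the high and -0.87 in the low 18S libraries. Klf10 rose by 0.24 at 1 h in LysM-Cre (limma adjusted p = 0.00231) and fell by 0.59 in FosKO-labelled BMDMs (limma adjusted p = 3.93e-08), and the responses differed by -0.83 (95% interval -0.99 to -0.66, limma adjusted p = 1.8e-06). At 2 h it had fallen in both, with LysM-Cre at -0.98 and FosKO-labelled BMDMs at -1.76 against 0 h, and the responses differed by -0.79 (95% interval -0.95 to -0.62, limma adjusted p = 8.87e-07). The 1 to 2 h steps, -1.22 and -1.17, were close in size, and the genotypes parted in the 0.5 to 1 h step, which was 0.25 in LysM-Cre and -0.45 in FosKO-labelled BMDMs. Using only the libraries of high 18S level, the LysM-Cre step was 0.12 and not called.

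Klf11 (ENSMUSG00000020653, chr12:24651274-24662789, plus strand), the other member named for TGF-beta, fell in both genotypes. Its means at 0, 0.5, 1 and 2 h were 7.90, 8.02, 7.19 and 6.83 in LysM-Cre and 7.61, 7.56, 7.11 and 7.03 in FosKO-labelled libraries. The FosKO-labelled values were below the controls at 0 and 0.5 h and above them at 2 h, with no overlap at these 3 times. The difference was -0.29 at 0 h (limma adjusted p = 0.00226), -0.47 at 0.5 h (limma adjusted p = 1.33e-05) and 0.20 at 2 h (limma adjusted p = 0.0194). At 0.5 h it was -0.54 in the high and -0.32 in the low 18S libraries. The change of Klf11 from 0 to 2 h was -1.07 in LysM-Cre and -0.57 in FosKO-labelled BMDMs, both called, and the responses differed by 0.49 (95% interval 0.29 to 0.69, limma adjusted p = 0.00126). The 2 h genotype difference was not called without LysM-Cre replicates 2 (0.17) or 3 (0.19) or FosKO-labelled replicate 2 (0.17).

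Klf9 (ENSMUSG00000033863, chr19:23141226-23168134, plus strand), the glucocorticoid target whose window held the AP-1 letters, was lower in FosKO-labelled BMDMs before and early after LPS. Its means at 0, 0.5, 1 and 2 h were 7.66, 7.65, 7.40 and 7.39 in LysM-Cre and 7.37, 7.34, 7.27 and 7.44 in FosKO-labelled libraries. The groups were apart at 0 h, by -0.29 (limma adjusted p = 0.00401), and at 0.5 h, by -0.31 (limma adjusted p = 0.00158), and overlapped at 1 and 2 h. Split by 18S level, the 0.5 h difference was -0.34 (high set) and -0.25 (low set). Klf9 fell by 0.26 in LysM-Cre at 1 h and by 0.26 at 2 h, and changed by -0.10 and 0.07 in FosKO-labelled BMDMs, which were not called. After quantile normalisation the 2 h changes were -0.16 in LysM-Cre, not called, and 0.19 in FosKO-labelled BMDMs, called. The 1 h fall was not called without LysM-Cre replicate 2 at 0 h (-0.20) or replicate 3 at 1 h (-0.19). The 2 h responses differed by 0.34 (limma adjusted p = 0.0309), and this was lost in 7 of 12 fits that left out a library: LysM-Cre replicate 2 at 0 h or replicates 1 or 3 at 2 h, or FosKO-labelled replicates 1 or 2 at 0 h or replicates 2 or 3 at 2 h (0.28 to 0.33). From 0.5 to 1 h Klf9 fell by 0.26 in LysM-Cre, and this was not called without replicate 3 at 1 h (-0.19) or after quantile normalisation (-0.20). The libraries of high 18S level gave -0.26 for this step, with only 1 LysM-Cre library left at 1 h. From 1 to 2 h it changed by 0.17 in FosKO-labelled BMDMs (limma adjusted p = 0.0552), which was called without replicate 1 at 1 h (0.22), after quantile normalisation (0.22), in the libraries of high 18S level (0.22), with a stricter filter and with no variance trend.

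Klf13 (ENSMUSG00000052040, chr7:63886351-63938915, minus strand), a Sin3-recruiting factor known as an activator of Ccl5 in T cells, had a span over the groups close to that of Klf9. Its means at 0, 0.5, 1 and 2 h were 11.50, 11.55, 11.22 and 11.24 in LysM-Cre and 11.51, 11.61, 11.31 and 11.42 in FosKO-labelled libraries. It fell at 1 h by 0.27 in LysM-Cre (limma adjusted p = 4.7e-08) and by 0.20 in FosKO-labelled BMDMs (limma adjusted p = 4.2e-06). At 2 h it was higher in FosKO-labelled libraries by 0.18 (SE 0.03, limma adjusted p = 1.12e-05), without overlap, and the responses differed by 0.16 (limma adjusted p = 0.00488). The 1 h difference of 0.09 (limma adjusted p = 0.0116) was not called without LysM-Cre replicate 2 (0.08) or FosKO-labelled replicate 2 (0.07), after quantile normalisation (0.04) or with only the compared groups in the fit (limma adjusted p = 0.0728), and was 0.12 in the high and 0.03 in the low 18S libraries. From 1 to 2 h Klf13 changed by 0.01 in LysM-Cre and 0.11 in FosKO-labelled BMDMs, and these steps were -0.06, which was called, and -0.02 after quantile normalisation.

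**Figure D3:**
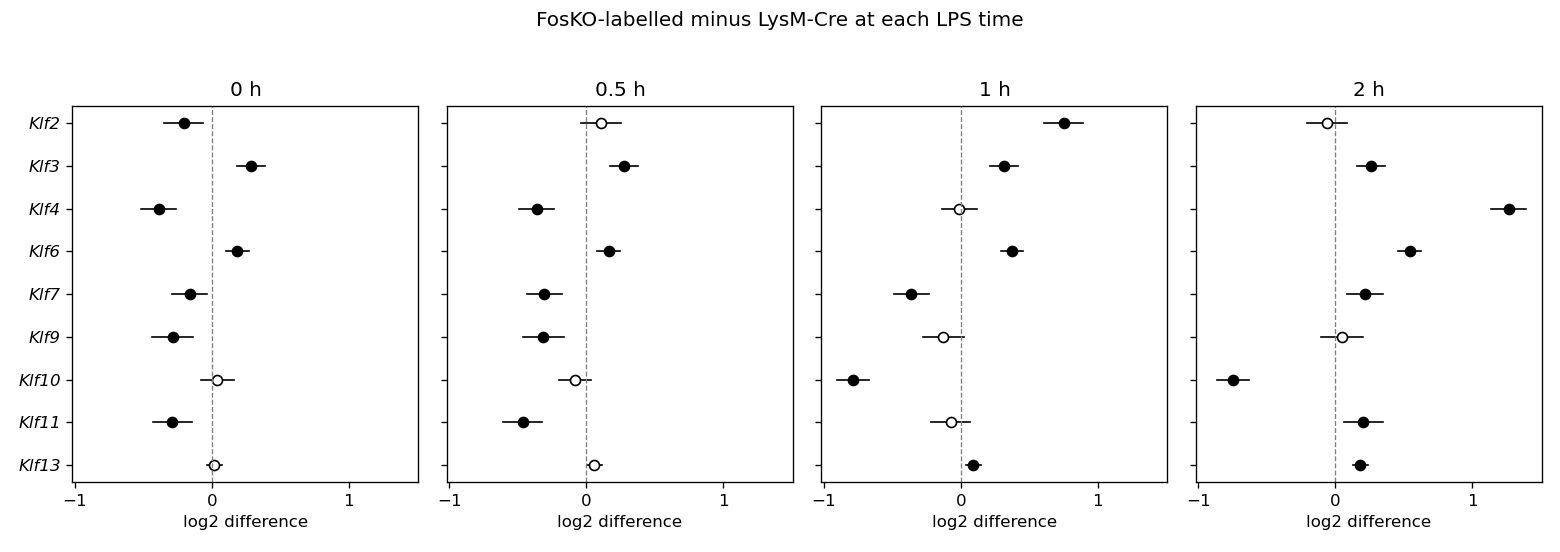
FosKO-labelled minus LysM-Cre log2 difference for each member at 0, 0.5, 1 and 2 h, with 95% intervals from the limma fit (3 libraries per group) and filled points for an adjusted p under 0.05. Most called points lay below 0 at 0 h (5 of 7) and above it at 2 h (6 of 7), where Klf4 reached 1.27 and Klf10 lay at -0.74. Of all genes, 35.4% were called at 0 h and 44.6% at 2 h.

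**Figure D4:**
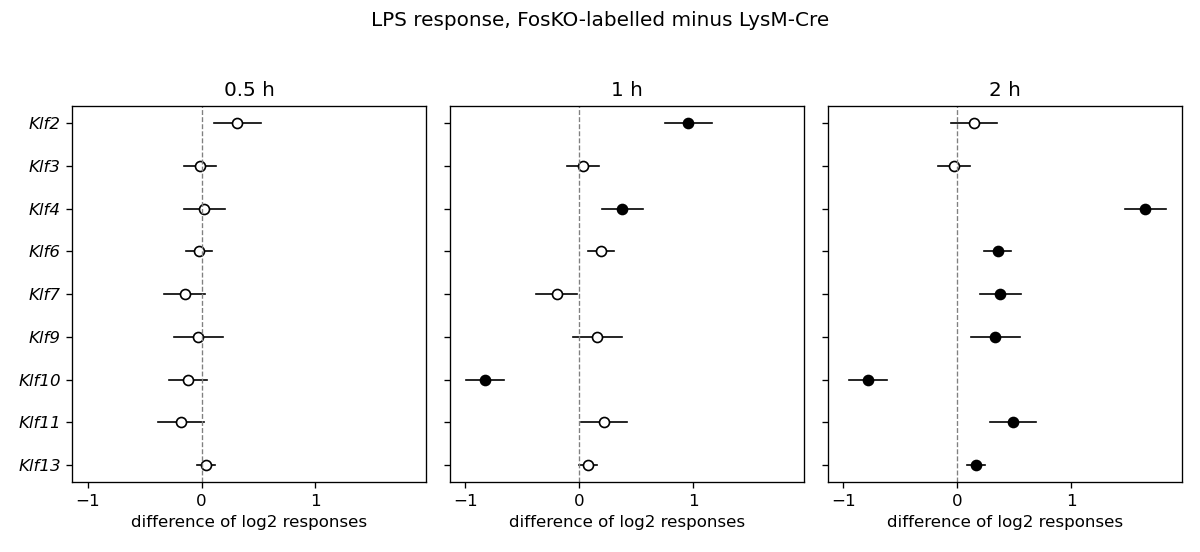
Difference in log2 LPS response against 0 h, FosKO-labelled minus LysM-Cre, with 95% intervals and filled points for called members. No point was filled at 0.5 h, 3 were at 1 h and 7 at 2 h, where Klf4 lay at 1.65 and Klf10 at -0.79. Of all genes, 0.115%, 1.22% and 15.0% were called at these times.

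The rank of the 8 groups differed between members. For Klf2 the FosKO-labelled 1 h group was highest and did not overlap the next group, whereas the groups next in order, FosKO-labelled 0.5 h, LysM-Cre 0.5 h and LysM-Cre 1 h, overlapped in turn. For Klf4 the FosKO-labelled 2 h group was highest and the LysM-Cre 2 h group lowest, and the next 3 groups from the top overlapped in turn. For Klf10 the LysM-Cre 1 h group was highest but overlapped the next group, FosKO-labelled 0 h, and the FosKO-labelled 2 h group was lowest. Over the 8 group means, Klf3 and Klf7 had a Pearson r of 0.911 and Klf3 and Klf10 of -0.911, as a description of 8 points that share the same libraries.

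Genes with the most similar pattern were taken from 10511 genes over the same 8 group means, as a description with no test. For Klf4 they were Trpv2 (r = 0.939), Gmip (0.932) and Secisbp2l (0.915). For Klf2 they were Gm42742 (0.959), Ppp1r10 (0.957) and Gtf2ird2 (0.945), and for Klf10 they were Atp5s (0.989), Zfp715 (0.988) and Srek1 (0.978). The patterns of Klf3 and Klf7 were matched more closely, by Lcp2, Peli1 and Il27 (0.996 each) and by Smarca5 (0.997), Gja1 (0.997) and Spred1 (0.992). Klf6 was most like E230013L22Rik (0.985), Bmp2 (0.98) and Csrnp1 (0.968), and Klf11 most like Kmt2e (0.984), Mepce (0.982) and Ric8 (0.964).

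Among the other Klf and Sp genes 12 of 17 were in the table and 8 were tested, of which 3 were higher and 2 lower in FosKO-labelled BMDMs at 2 h, where 44.6% of all genes were called. Klf8, a CtBP-recruiting relative of Klf3, was higher at 2 h by 0.46 (limma adjusted p = 2.71e-05) but was called lower before then, with differences of -0.44, -0.58 and -0.49 at 0, 0.5 and 1 h. Klf16, a Sin3-recruiting relative of Klf9, was lower at 2 h, with a difference of -0.52 (limma adjusted p = 2.11e-06). In LysM-Cre at 2 h 3 of the 8 rose and 3 fell (60.8% of all genes called), with Klf8 up by 0.91 (limma adjusted p = 6.2e-10) and Sp3 at -0.86 (limma adjusted p = 6.31e-13). Of 10 cofactors bound by Klf proteins, 4 were higher and 2 lower in FosKO-labelled BMDMs at 2 h (44.6% of all genes). The acetyltransferase gene Kat2b was higher by 0.50 (limma adjusted p = 4.93e-08) and Sin3a differed by -0.24 (limma adjusted p = 2.9e-05). In LysM-Cre at 2 h 3 of the 10 rose and 2 fell (60.8% of all genes), and the deacetylase genes Hdac1 and Hdac2 rose by 0.33 and 0.36 (limma adjusted p = 1.85e-08 and 6.88e-08).

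Of the 7 genes of the kinase and MEF2 route that leads to Klf2 and Klf4, 3 were higher and 2 lower in FosKO-labelled BMDMs at 2 h (44.6% of all genes called). Mef2a was higher at 2 h by 0.45 (limma adjusted p = 2.37e-09) and Mef2c by 0.36 (limma adjusted p = 7.46e-06). Before 2 h Mef2a was called lower in FosKO-labelled BMDMs, with values of -0.21 (0 h), -0.32 (0.5 h) and -0.23 (1 h). In LysM-Cre at 2 h 1 rose and 4 fell (60.8% of all genes called), with Mef2d at -0.39 and Mef2c at -0.55 (limma adjusted p = 5.53e-09 and 7.17e-09). Of the 8 genes of the TGF-beta route, 4 were higher and 1 lower in FosKO-labelled BMDMs at 2 h (44.6% of all genes). The signal transducer Smad3 was higher by 0.54 (limma adjusted p = 1.39e-08) and the receptor gene Tgfbr1 differed by -0.40 (limma adjusted p = 2.26e-07). In LysM-Cre at 2 h 5 rose and 2 fell (60.8% of all genes), and the Smad corepressor gene Skil rose by 1.85 (limma adjusted p = 5.6e-16) and Tgfbr1 by 0.45 (limma adjusted p = 8.59e-09).

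Of 5 genes for the glucocorticoid receptor and its classic targets, 2 were higher and 0 lower in FosKO-labelled BMDMs at 2 h, where 44.6% of all genes were called. The receptor gene Nr3c1 was higher by 0.41 (limma adjusted p = 1.45e-07) and the target Tsc22d3 by 0.18 (limma adjusted p = 0.00859). At 0, 0.5 and 1 h 1, 1 and 2 genes of the list were higher and 1 was lower (35.4%, 40.9% and 33.9% of all genes called). Tsc22d3 was higher by 0.45, 0.66 and 0.33 at these times and Nr3c1 by 0.11 at 1 h. The lower gene was Zbtb16, named here after its values were seen, with differences of -0.74, -1.20 and -0.70. In LysM-Cre at 2 h 2 of the 5 rose and 3 fell (60.8% of all genes called), with Per1 at -1.79 (limma adjusted p = 4.15e-15) and Tsc22d3 at -1.28 (limma adjusted p = 8.9e-15). Of 3 ubiquitin ligase genes whose products act on Klf proteins, only Fbxw7 was called higher in FosKO-labelled BMDMs at 2 h. Its difference was 0.14 (limma adjusted p = 0.0113), beside -0.14 for Wwp1, short of the threshold (limma adjusted p = 0.0746). Earlier, at 0, 0.5 and 1 h, 1, 2 and 1 of the 3 were called higher and 1, Wwp1, lower each time. Mean Wwp1 levels at these times were 12.99, 13.05 and 13.08 in LysM-Cre and 12.75, 12.74 and 12.77 in FosKO-labelled libraries. In LysM-Cre at 2 h Smurf1 rose by 0.64 (limma adjusted p = 7.53e-11) and Fbxw7 was at -0.36 (limma adjusted p = 3.1e-07). The medians of the 6 lists for the 2 h genotype difference ran from -0.04 to 0.09, beside 0.0040 over all genes tested.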

How the data were processed

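Members and gene lists were chosen with earlier results of these data known. Per the study's methods and the submitters' processing notes, libraries were sequenced single-end with strand-specific reads, the reads were mapped to GRCm38 with STAR 2.5.2a and counted per gene with RSEM 1.2.31, and the notes name DESeq2 1.16.1. The authors deposited 1 table of normalised log2 values for 24273 genes in 24 libraries, 1017 of them without a symbol. The deposited values run from -2.22 to 19.39, and the transform is not given in the sources used here. Its values below 0 differ little between libraries, so low genes may be shrunk towards a common level, and the methods give a typical sequencing yield but no depth for each library.

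Genes with a linear value (2 to the power of the deposited value) of at least 5 in at least 3 libraries were kept, which left 13901. A limma 3.58.1 model (R 4.3.3) with 8 group means and a variance trend was fitted to the log2 values of all 24 libraries (16 residual degrees of freedom). It gave 17 comparisons, each adjusted by Benjamini-Hochberg over all genes tested and called at an adjusted p under 0.05. Script steps were tested on simulated data. Marker sums were made on the linear scale and returned to log2. Pathway lists were described by counts of called genes and medians of log2 differences. Ensembl IDs of 24194 genes (99.7%) matched GENCODE. Pathway genes named are the 2 with the largest t for the 2 h genotype difference and the 2 with the largest t for 2 h LPS in LysM-Cre in each list. Similar genes are the 3 with the highest Pearson r among genes with a symbol and a mean linear value of at least 50, for members spanning at least 1. Alternatives were other scalings, filters, a pseudocount of 1, fewer libraries, no trend, a replicate block, an 18S term and leaving out each library.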

Additional observations from a re-analysis of the deposited data

Results flagged for a closer look

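The difference in log2 LPS response between the genotypes (FosKO-labelled minus LysM-Cre) was tested by limma as an interaction. It was called for 3 members at 1 h (1.22% of all genes called) and 7 at 2 h (15.0%), and each is listed for that reason. At 1 h it was 0.96 for Klf2, 0.38 for Klf4 and -0.83 for Klf10. At 2 h it was 1.65 for Klf4, 0.36 for Klf6, 0.38 for Klf7, 0.34 for Klf9, 0.49 for Klf11, 0.16 for Klf13 and -0.79 for Klf10. The Klf4 value at 1 h and the Klf9 value at 2 h were not called in 10 and 7 of 12 fits that left out a library. With 3 libraries per group, no group was examined for a single library far from the others.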

How the results depend on the processing

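Under the alternatives, 301 of 303 counts of members called stayed within 1.5 times the reported count. With only the compared groups in the fit, 2 members were called at 0.5 h of LPS in FosKO-labelled BMDMs, and with only the libraries of high 18S level, 4 were called from 0.5 to 1 h in LysM-Cre. Of 2727 members' differences, 2641 kept their side of the threshold, 65 lost the call and 18 gained it. Another 3 changed sign with a call in the reported fit, the alternative or both. Changes of sign between values that were not called are counted among the 2641. The 3 sign changes with a call came with quantile normalisation, and their cause was not tested. The value was -0.0456 for Klf6 from 0.5 to 1 h in LysM-Cre. For Klf13 from 1 to 2 h it was -0.0569 in LysM-Cre and -0.0227 in FosKO-labelled BMDMs. Other scalings moved the median of all genes by under 0.1. With only the compared groups in the fit, the calls of Klf2 at 0 h, Klf11 at 2 h and Klf13 at 1 h between genotypes, of Klf4 at 0.5 h in FosKO-labelled BMDMs and of the Klf4 difference in response at 1 h were also lost. The Klf7 difference at 0 h was lost with no filter, no trend or only the libraries of high 18S level. The replicate numbers were not taken as pairs, since the labels do not tie them to mice and not every same-numbered pair correlated above 0.1. Deviations of same-numbered libraries correlated at -0.248 to 0.706 within a genotype, with 12 of 36 pairs above 0.1 against 4 of 72 pairs of other numbers, and at -0.527 to 0.349 between genotypes, with 6 of 48 above 0.1 against 18 of 96. Of the 24 libraries 15 correlated best with their own number, a hint from the data and not from the design. With the replicate block, the LPS response of Klf3 at 0.5 h in LysM-Cre (0.14, limma adjusted p = 0.0315) and the difference in response of Klf6 at 1 h (0.19, limma adjusted p = 0.039) became called, and no call of a member was lost. With the block within genotype, Klf3 at 0.5 h (0.13) and Klf9 from 1 to 2 h (0.17) in FosKO-labelled BMDMs were called too. No depth is given for each library, so its effect on low members such as Klf9 and Klf11 cannot be given.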
